A study of Mus musculus with 9 samples.

Results

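Mesothelial-like cells were a rare population, picked by mesothelial genes, within cultures of mouse embryonic fibroblasts that were being converted to neurons. A cell was counted as mesothelial-like when at least 3 of the 6 genes Upk3b, Msln, Lrrn4, Krt19, Upk1b and Muc16 had at least 1 UMI (unique molecular identifier, the count of 1 captured transcript). By this rule 215 of 81999 kept cells, 0.262%, were members, where a barcode was kept if it had 3000 UMI or more, of which no more than 20% were mitochondrial. The members were chosen by measured counts of the 6 genes, so their levels describe the rule and were not tested. Just inside the threshold lay 69 members with exactly 3 of the 6 genes, followed by 62 members with 4, 56 with 5 and 28 with all 6. Just outside it lay 194 cells with 2 of the genes, and 2784 further cells had 1.

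The mesothelium is the flat epithelium that lines the pleural, pericardial and peritoneal cavities and covers the organs within them. It arises from the lateral mesoderm, and its cells combine epithelial traits, such as keratins, tight junctions and an apical coat of microvilli, with traits of mesenchyme, such as vimentin and the transcription factor WT1. In the embryo it covers and feeds the growing organs with signals, makes retinoic acid, and gives rise to fibroblasts and smooth muscle by an epithelial to mesenchymal transition.

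The 9 libraries held cells of 3 genotypes, wild type (WT), Per1-/- and Per2-/-, collected on days 4, 7 and 10 after neuronal induction, with 1 library for each genotype and day. Per1-/- and Per2-/- were the Per1tm1Drw and Per2tm1Drw alleles of these negative regulators of the circadian clock. In all 9 libraries the fibroblasts came from whole embryos without head and heart, were pooled from several embryos of undetermined sex, and received doxycycline-inducible lentiviruses for neuronal transcription factors, Brn2 and Myt1l among them, with doxycycline and neuronal medium from day 0. Because each combination of genotype and day was a single library, genotypes were compared over the 3 days and days over the 3 genotypes, and p-values measure the spread that remained between libraries.

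Total counts were between 126625215 and 353198559 UMI per library, and the members of a library summed to between 24843 and 1872408 UMI. The WT day 10 library stood apart, with a median of 1776 genes per barcode against 4158 to 5388 in the other 8, and its 2 members included 1 that also met the macrophage rule, so values are given with and without it. Day 10 libraries used another gene table than days 4 and 7, with 30406 of 31053 and 32285 gene identifiers in common. Among the kept cells 1651 carried a barcode that another library also held, and 4 of these were members. The median depth was 36824 UMI in members and 20931.5 in all other kept cells, 68 members were among the 5% of cells with most UMI in their library, and 12 met the marker rule of another class (7 macrophage, 4 neuron, 2 Schwann). Doublets were not removed by a caller. These cells stay in all values unless stated.

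Per1 was at 10.3, 10.4 and 8.76 CPM (the gene's UMI per 1000000 UMI of the summed members) in WT, Per1-/- and Per2-/- members on day 4, at 12.0, 14.4 and 7.92 on day 7, and at 0, 10.5 and 5.11 on day 10. Per2 was at 2.57, 4.38 and 7.67 CPM on day 4, at 2.40, 4.28 and 7.13 on day 7, and at 0, 3.50 and 6.81 on day 10. Neither transcript was lost in its own knockout, and counts of transcript ends outside the altered part of an allele check nothing about the label.

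The promoters of 3 genes are shown because these genes chose the cells, Upk3b and Lrrn4 with the highest shares of positive members and Muc16, a mucin of the mesothelial surface. Each runs from 250 bases before to 50 bases after the start of transcription in the RefSeq table of build GRCm38.p6, 5′ to 3′ on the strand of the gene, and capitals mark the core of the TEAD motif, GGAATG, on either strand. The windows are chr5:136038246-136038545 (plus strand) for Upk3b, chr2:132880813-132881112 (minus strand) for Lrrn4 and chr9:18674554-18674853 (minus strand) for Muc16.
Upk3b: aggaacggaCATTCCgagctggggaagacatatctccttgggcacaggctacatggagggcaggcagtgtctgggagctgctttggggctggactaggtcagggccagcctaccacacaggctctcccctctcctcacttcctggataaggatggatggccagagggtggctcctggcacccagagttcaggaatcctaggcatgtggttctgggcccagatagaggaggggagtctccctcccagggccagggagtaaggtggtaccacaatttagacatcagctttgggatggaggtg
Lrrn4: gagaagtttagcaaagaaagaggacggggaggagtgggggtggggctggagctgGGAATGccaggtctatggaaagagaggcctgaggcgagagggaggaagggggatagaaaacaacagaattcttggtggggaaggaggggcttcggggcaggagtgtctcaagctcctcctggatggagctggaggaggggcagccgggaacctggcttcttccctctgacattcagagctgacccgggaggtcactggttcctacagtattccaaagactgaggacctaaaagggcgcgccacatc
Muc16: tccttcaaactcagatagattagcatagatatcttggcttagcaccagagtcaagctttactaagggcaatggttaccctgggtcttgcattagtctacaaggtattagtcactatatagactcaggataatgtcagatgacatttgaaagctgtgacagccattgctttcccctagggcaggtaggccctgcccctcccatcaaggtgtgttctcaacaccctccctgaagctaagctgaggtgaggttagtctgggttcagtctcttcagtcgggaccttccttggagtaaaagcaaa
The TEAD letters were at base 10 of the Upk3b window, on the opposite strand, and at base 55 of the Lrrn4 window, and they were not in the Muc16 window. Of 26 genes looked up, the 6 genes of the rule and the 20 described below as highest, 18 had an entry, and Msln, Krt19, Upk1b and Wt1 were among those without. GGAATG was in a window of 4 of the 18 genes (Upk3b, Lrrn4, Tmem108 and Nfe2l3) and in 14.7% of all 32851 promoters in the table. The GATA letters AGATAA were in 0 of 18 against 11.2% of all promoters, and the WT1 letters GCGTGGG in 1 of 18 (Shroom3) against 5.04%. These matches describe letters and are no evidence of binding.

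Upk3b, a uroplakin of the mesothelial surface (chromosome 5, 136038496 to 136046487, plus strand, GENCODE vM21 on GRCm38), was found in 94.9% of members and in 0.333% of the other cells. Its level in members was 456, 370 and 561 CPM in WT, Per1-/- and Per2-/- cells on day 4, 566, 598 and 446 CPM on day 7, and 40.4, 823 and 417 CPM on day 10. The level was lowest in WT day 10, where it rested on 1 UMI, and the other 8 libraries lay between 370 and 823 CPM. Lrrn4, a leucine-rich repeat membrane protein, was in 95.3% of members and 0.435% of other cells, Upk1b, a uroplakin, in 88.4% and 0.135%, and Msln, mesothelin, in 75.3% and 1.60%. Muc16, the mucin that binds mesothelin, was in 40.0% and 0.0220%, and Krt19, a simple epithelial keratin, in 26.0% and 1.36%. Cells that met the macrophage rule, which should lack these genes and had a median depth of 23937 UMI, held them in between 0.0106% (Muc16) and 0.614% (Msln) of cells. Krt19 varied most, at 362, 63.5 and 39.4 CPM on day 4, 156, 10.7 and 38.8 CPM on day 7, and 0, 266 and 5.11 CPM on day 10.

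Genes that the rule did not use gave the same cells a mesothelial profile. Wt1, the transcription factor of the coelomic epithelium (chromosome 2, 105126529 to 105173616, plus strand), was in 92.6% of members and in 1.54% of the other cells. Wt1 was at 73.6, 83.2 and 196 CPM in WT, Per1-/- and Per2-/- members on day 4, at 95.9, 126 and 90.3 CPM on day 7, and at 323, 121 and 141 CPM on day 10, and at 0.691 to 2.99 CPM in the other cells. Every library of members lay above every library of other cells. Bnc1, a basonuclin zinc finger protein of mesothelium and keratinocytes, was in 80.9% of members, and Gpm6a, a membrane glycoprotein long used as a mesothelial marker, in 84.7%. Of Wt1, Bnc1 and Gpm6a, 150 members held all 3, 47 held 2, 11 held 1 and 7 held 0, and the 7 cells without any of them were members by the 6 genes alone.

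Outside the rule, 39 of 17421 genes, 0.224%, were at least 4-fold higher in members than in all other kept cells in each of the 9 libraries and were seen in at least 20% of members. Without WT day 10 the count was 116, 0.666%. This contrast describes the rule's own split and carries no test. The 20 genes with the highest median fold of the 39 were Prr15, Cgn, Rspo1, Wt1, Myrf, Pard6b, Podxl, Tmem108, Rnd1, Slc9a3r1, Cntnap3, Ildr2, Ezr, Itga3, Gata6, Nfe2l3, F11r, Tmem151a, Stk26 and Shroom3. They included an apical and tight-junction group: cingulin (Cgn, 35.4 CPM in members and 0.324 in other cells), the polarity protein Pard6b (42.0 and 0.623), the junctional adhesion molecule F11r (62.9 and 2.58), ezrin, which ties microvilli to actin (Ezr, 642 and 27.3), and podocalyxin, a sialomucin of the apical coat (Podxl, 41.2 and 0.449). Rspo1, a secreted amplifier of Wnt signals, was at 183, 204 and 195 CPM on day 4, 221, 233 and 237 CPM on day 7 and 162, 268 and 364 CPM on day 10.

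**Figure D1:**
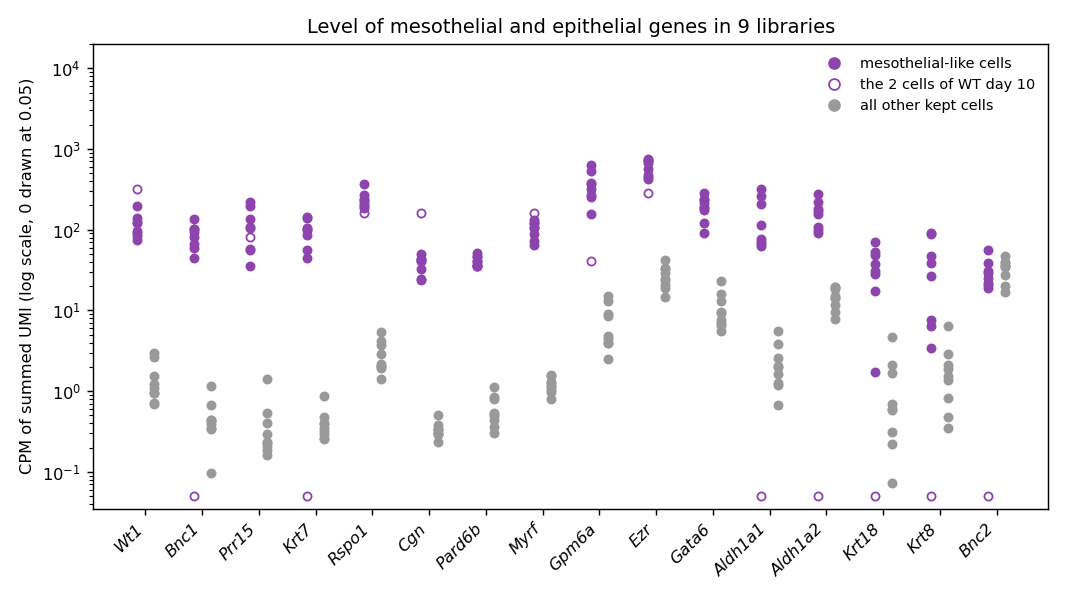
Level of 16 genes outside the rule in each of 9 libraries, in CPM on a log axis, with each point 1 library, purple for the summed mesothelial-like cells, open purple for the 2 cells of WT day 10 and grey for all other kept cells. For 13 of the genes every filled purple point lies above every grey point. Krt18 and Krt8 overlap, and Bnc2 lies at a median of 0.789 times the other cells.

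Of 22 listed mesothelial identity genes 19 were in at least 10% of members. Of these, 18 were at least 4-fold higher in the summed members, beside 3% of all genes above the same 10%, and 17 were higher in each of the 8 libraries without WT day 10. The median log2 ratio of the list was 4.04, against a median of -0.093 over all genes in at least 10% of members. The list was chosen with earlier results of these data known, so these values describe the rule's split and are no test. The exceptions were Bnc2, a basonuclin shared with fibroblasts, at 28.6 CPM in members and 33.0 in others, and the protease inhibitor Slpi, which was at 10.6 against 0.175 CPM but not higher in every library. Dmkn, Cxcl13 and Calb2, calretinin, were each in under 10% of members, Calb2 with 0 UMI. Of all 11296 genes in at least 10% of members, 10.3% were higher and 15.3% lower in each of these 8 libraries, and list counts of this kind cover genes above the same 10%. Of 22 junction and polarity genes 12 were in at least 10% of members and 9 were higher in all 8 libraries, among them plakophilin 2 (Pkp2, 23.2 against 5.25) and plakoglobin (Jup, 118 against 28.4), while E-cadherin, Epcam, occludin, Cldn3 and Cldn4 were each in under 10% of members. Of the 10 keratins Krt7, Krt8, Krt18 and Krt14 were higher in all 8. Podoplanin (Pdpn), which fibroblasts also make, was at 373 against 78.3 CPM.

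Matrix and contractile genes separated into those that were higher and those that were lower. Smooth muscle actin (Acta2) was at 1459 CPM in members and 252 in the other cells, transgelin (Tagln) at 1599 and 241, fibronectin (Fn1) at 3681 and 896, Col3a1 at 8368 and 3693 and lysyl oxidase (Lox) at 705 and 301. All of these were higher in each of the 8 libraries, whereas 12 of the 21 listed transition genes were lower in each of them, beside 15.3% of all genes. The lower genes included the transition factors Snai1, Snai2, Twist1, Twist2, Zeb1 and Zeb2, with Zeb2 at 73.8 against 228 CPM, and periostin (Postn) at 172 against 1334 CPM. Collagen VI (Col6a3, 54.9 against 372 CPM), Pdgfra (31.9 against 112 CPM) and lumican (Lum, 134 against 517 CPM), markers of fibroblasts, were lower, and decorin (Dcn, 2043 against 1151 CPM) was higher. Of 5 smooth muscle and pericyte markers, Myh11 was at 11.3 against 1.89 CPM, and Rgs5, Cspg4 and Kcnj8 were at least 4-fold lower.

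Among secreted and signalling genes, members held more of the Wnt modulators Rspo1 and Sfrp2 (1671 against 322 CPM), Wnt9a (19.0 against 3.65), Bmp4 (139 against 41.9), Fgf2 (51.4 against 15.4) and Fgf18 (24.0 against 10.2), and less Fgf7 (8.17 against 47.0), Igf1 (75.5 against 199.6) and Dkk2 (31.9 against 152), in each of the 8 libraries. Of 37 listed Wnt, BMP, FGF and hedgehog genes 27 were in at least 10% of members. In each of the 8 libraries 8 of these were higher and 6 lower, beside 10.3% and 15.3% of all genes above the same 10%. The retinoic acid makers Aldh1a1 (162 against 2.14 CPM) and Aldh1a2 (159 against 13.9 CPM) were higher and the binding proteins Crabp1 (112 against 465) and Crabp2 (31.7 against 54.2) lower. Csf1, the macrophage growth factor, was at 238 against 57.6 CPM, Il18 at 67.3 against 6.91, Ccl2, which attracts monocytes, at 212 against 18.5, and Lif at 8.89 against 0.561. Of the 24 listed chemokines and cytokines, 5 of the 10 in at least 10% of members were at least 4-fold higher, beside 3% of all genes above the same 10%. Another 6 of the 24 were at least 4-fold lower, each in under 10% of members, beside 38% of all genes with a UMI in any kept cell, such as Ccl8 (1.63 against 29.4 CPM) and Cxcl5 (3.07 against 22.8 CPM). In the complement group C3 was at 34.2 against 3.68 CPM and the C1 inhibitor Serping1 at 98.4 against 32.2. Of 30 measured interferon response genes 26 were in at least 10% of members and 12 were lower in each of the 8 libraries, beside 15.3% of all genes, such as Ifit3 (11.2 against 38.8) and Psmb8 (9.91 against 33.7), and Gbp2 (16.8 against 6.10) was higher in each.

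At least 4-fold lower in all 8 libraries were 12 genes, 0.0689% of those compared. They were led by the macrophage genes Fcer1g, Lyz2, Tyrobp and C1qb and also held Prlr, Gap43 and Dach1. The other cells include macrophages. Against cells of the fibroblast rule the same macrophage genes were higher in members. Cells that met the macrophage rule were left out of the fibroblast sums, while 7 such cells stayed among the members. The comparison is thus uneven by construction. In order they were at 42.9, 81.0, 30.5 and 33.6 CPM in members and at 7.61, 18.6, 6.39 and 6.79 CPM in those cells. The transduced factor Pou3f2 (Brn2) was in 34.0% of members, at 105 against 374 CPM. The neuronal genes Tubb3 (20.1 against 135 CPM), Stmn2 (14.6 against 123 CPM) and Gap43 (8.07 against 75.9 CPM) were lower in each of the 8 libraries.

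On day 4 the mesothelial-like share of kept cells was 0.242% in WT (21 cells), 0.248% in Per1-/- (27 cells) and 0.324% in Per2-/- (27 cells). By day 7 it was 0.128%, 0.688% and 0.233% in the same order (11, 44 and 26 cells), and by day 10 it was 0.0292%, 0.480% and 0.109% (2, 44 and 13 cells). On day 4 the exact 95% binomial intervals, which cover counting error only, overlapped in all 3 genotypes. On day 7 the Per1-/- interval, which ended at 0.922%, lay wholly above those of WT (0.0639% to 0.229%) and Per2-/- (0.152% to 0.341%), and on day 10 it lay at 0.349% to 0.644% against 0.00354% to 0.105% and 0.0580% to 0.186%. The share in Per1-/- was 1.03, 5.37 and 16.4 times that of WT and 0.764, 2.95 and 4.41 times that of Per2-/- on the 3 days, and the 16.4 rests on the 2 WT cells of day 10.

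**Figure D2:**
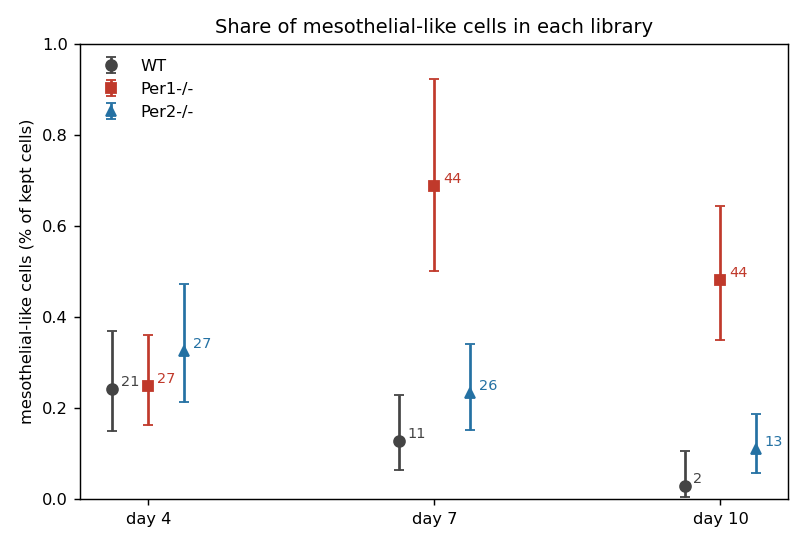
Mesothelial-like cells as a percent of kept cells (vertical axis) in each library by day, with the exact 95% binomial interval and the number of cells beside each point. On days 7 and 10 the Per1-/- points, 0.688% and 0.480%, lie above those of WT and Per2-/-, and on day 4 the intervals overlap.

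Averaged over the days, the share in Per1-/- was 0.294 percentage points above the average of the other genotypes (p = 0.0741, exact two-sided permutation of genotypes within days, 27 assignments, smallest possible p 0.037). This test takes the days of a genotype as independent repeats. Whether the cultures of different days came from separate embryos is not stated. By day the difference was -0.0352, 0.507 and 0.411 percentage points, so it was not present on day 4. When cells with 2 of the 6 genes were counted too, the difference was 0.423 percentage points (exact permutation p = 0.037). With cells thinned to 3000 UMI it was 0.153, and with at least 4 of the 6 genes 0.237 (exact permutation p = 0.111 each). Without members of another class or of highest UMI it was 0.193, and with all barcodes 0.278 (exact permutation p = 0.111 each). Without cells of the macrophage rule it was 0.394 (exact permutation p = 0.0741). Per2-/- differed from the mean of WT and Per1-/- by -0.0804 percentage points (exact permutation p = 0.741). The mean change per day over the 3 genotypes was -0.0109 percentage points (p = 0.713, exact two-sided permutation of days within genotypes, 216 assignments), with slopes of -0.0354 in WT, 0.0387 in Per1-/- and -0.0359 in Per2-/-. It was 0.0251 without the Per1-/- day 10 library and -0.0468 without the Per1-/- day 4 library (exact permutation p = 0.0278). With 1 pooled culture per library, the embryos that entered a dish cannot be told apart from the genotype or the day. A share also does not say whether members were more numerous or other cells fewer.

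Sex-linked transcripts gave the makeup of the pooled embryos. In the Per1-/- libraries of days 7 and 10, 44 of 44 and 38 of 44 members had a Y-linked transcript and no Xist, as had 94.3% and 93.7% of the other cells. In the remaining libraries members of both kinds were present, apart from WT day 4 and WT day 10, with 0 members that were Y only. Xist and a Y-linked transcript were found together in 9.52%, 25.9% and 18.5% of members on day 4 (2, 7 and 5 cells), beside 10.3%, 13.6% and 8.32% of the shallower other cells. On day 7 the shares were 9.09%, 0% and 15.4% (1, 0 and 4 cells) beside 6.87%, 0.173% and 10.1%, and on day 10 they were 0%, 0% and 15.4% (0, 0 and 2 cells) beside 13.9%, 0.110% and 14.5%. Y only cells made up 41.0% of the other cells of Per1-/- on day 4. In Per2-/- they made up 45.6%, 17.2% and 36.5% on days 4, 7 and 10, and in WT 18.9%, 19.2% and 10.0%. Sex makeup thus differed between days within Per1-/- and within Per2-/-. The Per1-/- cells with the highest shares of members came from cultures that differed from the rest in sex makeup, and the part of this in the share was not tested.

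Members varied in which regional genes they carried. Gata4, a transcription factor of heart, liver and gonad coelomic epithelium, was in 65 members, Podxl in 86 and both were in 40. Amhr2, the receptor for anti-Müllerian hormone of the urogenital coelom, was in 14 members, 12 of them with Gata4 and 12 with Podxl. By library Amhr2 was in 0, 0 and 7 members of WT, Per1-/- and Per2-/- cultures on day 4, in 0, 1 and 2 members on day 7, and in 0, 1 and 3 on day 10, so 12 of the 14 cells were Per2-/-. Gata6, in contrast, was in 94.0% of members. Krt8 was in 65 members and its partner Krt18 in 71, with both in 41, while the basal keratin Krt14 was in 41 members and in 0.0342% of other cells, and 20 of the 41 had Krt8. The skeletal muscle myosins Myh8 and Myh1 were in 76 and 69 members, with both in 42, and in 0.759% and 0.468% of other cells, although 0 members met the skeletal muscle rule. These myosins are coded by neighbouring genes on chromosome 11 with similar proteins, and whether this has a part in their joint detection was not tested.

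**Figure D3:**
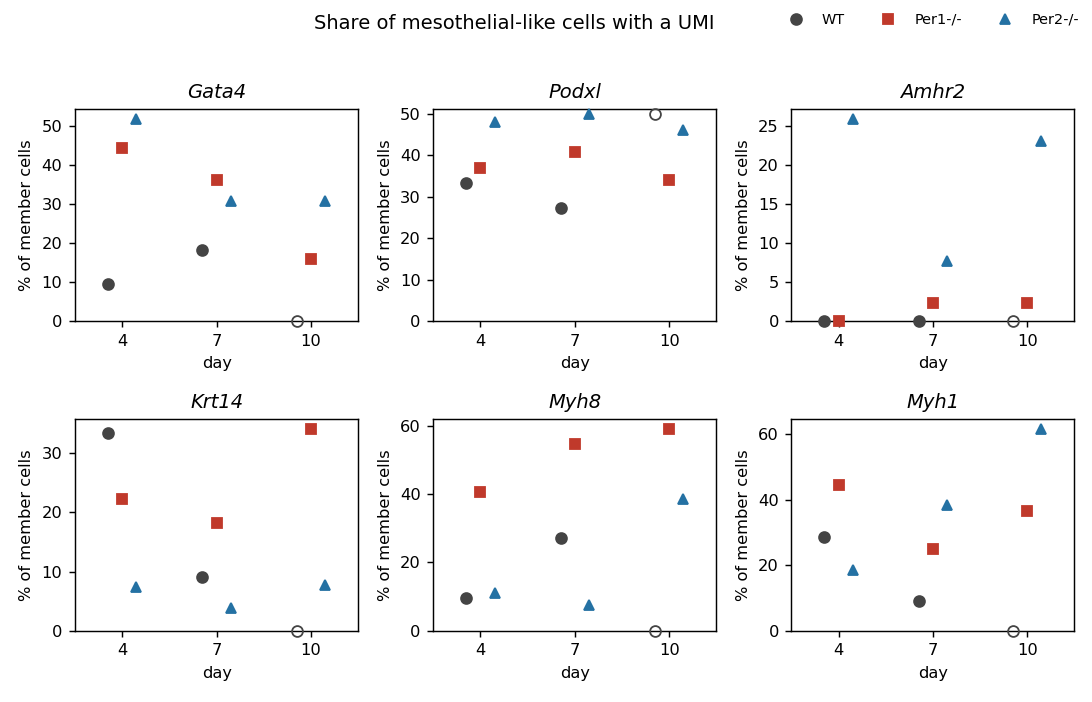
Percent of mesothelial-like cells with at least 1 UMI of 6 genes (vertical axes) by day and genotype, with each point 1 library and the open point the 2 cells of WT day 10. Amhr2 is in 7, 2 and 3 Per2-/- members and in 0 or 1 members elsewhere, and Myh8 is in 11, 24 and 26 Per1-/- members.

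The spread over cells was measured as the variance over that of counting at equal depth in 213 members of libraries with at least 10 members. The median over 11296 genes was 1.35. It was highest for Malat1 (1078), Spp1 (509), S100a6 (396), Ptn (312), Crip1 (281), Dlk1 (255), Acta2 (237) and Col3a1 (237). Spp1, osteopontin, was in 53 members, and 87.8% of its 982 UMI were in 5 cells. Acta2 was in 79.1% of members, with 29.2% of its UMI in 5 cells. Col3a1 was in all members and was far more even, with 9.79% in 5 cells.

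Over days, the summed members of each library were tested with edgeR for day with genotype as a term, and a gene was called at an adjusted p under 0.05. The day and the embryos pooled for a library cannot be told apart in these tests. Of 10176 genes tested, 52 (0.511%) were called between day 7 and day 4, 82 (0.806%) between day 10 and day 7 and 136 (1.34%) between day 10 and day 4. Without the WT day 10 library the counts were 11 (0.108%), 48 (0.472%) and 68 (0.668%). In simulated counts of these libraries 93% of genes changed 4-fold and 24% of genes changed 2-fold between day 10 and day 4 were recovered, and 14 unchanged genes were called too. Here and in the later simulations the genes of lowest level were never among those changed, so the recovery does not cover them. Of the 136 genes, 105 rose and 31 fell, and 92 moved at least 2-fold in the same direction in the other cells of the same libraries.

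Many of the changes at day 10 were seen in the other cells as well. Among tested genes 41 rose and 8 fell at least 4-fold from day 7 to day 10 in the other cells of all 3 genotypes, against 7 and 1 from day 4 to day 7, and these made up 45 of the 82 and 44 of the 136 calls. Atp6v0c, a proton pump subunit, had 19, 12 and 1055 UMI in members on days 4, 7 and 10, and rose by 6.54 ± 0.33 (log2, SE) from day 4 to day 10 in members and by 6.54 in other cells. Ptp4a1, a phosphatase, had 382, 350 and 1 UMI and fell by 7.50 ± 0.57 in members and by 6.33 in others. Rnasek, Timm23, Tomm6, Mrpl53, Ube2v1, Ndfip1, Akap2, Dbndd2 and Fam89b likewise rose in both, and Coro1b, Chtf8, Nxf1, Rps6ka4 and Fam220a fell in both. The day 10 libraries differ from the rest in gene table and software version, and this and the day cannot be told apart.

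Keratin 8 and the retinoic acid binding proteins were lower at later days. Krt8 was at 89.9, 47.6 and 87.6 CPM in WT, Per1-/- and Per2-/- members on day 4, 38.4, 26.7 and 6.34 CPM on day 7 and 0, 7.57 and 3.41 CPM on day 10, and the day 10 values of Per1-/- and Per2-/- lay below all of day 4. The 0 UMI of WT day 10 allow up to 121 CPM, which is above the day 4 values. It was in 38 of 75 members on day 4, 19 of 81 on day 7 and 8 of 59 on day 10, and fell by 3.38 ± 0.53 on the log2 scale between days 4 and 10 (edgeR adjusted p = 0.000863, 0.0412 without WT day 10). In other cells its change was -1.83, and the difference between members and other cells did not pass (edgeR adjusted p = 0.632). In simulated counts with 1 spread for all genes, the fit of such differences recovered 72% at 4-fold and 6% at 2-fold. It also called 4 unchanged genes. A difference that did not pass, here or for the genes below, may therefore still be present.

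Crabp1, which holds retinoic acid in the cytoplasm (chromosome 9, 54764748 to 54773110, plus strand), was at 404, 189 and 112 CPM on day 4, 55.1, 23.0 and 51.5 CPM on day 7 and 0, 17.5 and 18.7 CPM on day 10. All day 4 libraries lay above all later ones but WT day 10, where 0 UMI allow up to 121 CPM, a level between those of day 4. It was in 50, 27 and 10 members on the 3 days and fell by 3.28 ± 0.42 from day 4 to day 10 (edgeR adjusted p = 8.03e-05, 0.0111 without WT day 10), against a change of -1.39 in other cells (edgeR adjusted p of the difference 0.101). Crabp2 fell by 2.67 ± 0.62 (edgeR adjusted p = 0.0319, 0.0111 without WT day 10), with 53.1, 72.3 and 44.9 CPM on day 4 and 3.50 and 10.2 CPM in Per1-/- and Per2-/- on day 10. The 2 cells of WT day 10 were the exception, at 202 CPM from 5 UMI, and the call was lost without Per1-/- day 4 or Per1-/- day 10 (0.218 and 0.697). These 2 were the genes called among 10 tested genes of the retinoic acid list, beside 1.34% of all genes, and Aldh1a1 and Aldh1a2 did not pass.

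Other genes fell after day 4. Hmga2, an architectural chromatin factor of embryonic and growing cells, was at 151, 122 and 101 CPM on day 4, 28.8, 23.5 and 31.7 CPM on day 7 and 40.4, 53.0 and 81.8 CPM on day 10. Every day 4 library lay above every later one, with WT day 10 at 1 UMI, and the fall from day 4 to day 7 was 2.13 ± 0.28 (edgeR adjusted p = 0.000619, 0.0236 without WT day 10). In other cells Hmga2 changed by -1.19, and the difference did not pass (edgeR adjusted p = 0.304). The contractile genes Cnn1 (calponin) and Des (desmin) fell by 2.98 ± 0.46 and 1.59 ± 0.30 from day 4 to day 10 (edgeR adjusted p = 0.000838 and 0.00631). Other cells changed by -2.04 and -0.24, and the difference between members and other cells passed for Des and not for Cnn1 (edgeR adjusted p = 0.0379 and 0.959), and for Des not without WT day 10 (0.0704). With members thinned to 6500 UMI, which left 4026 genes to test, the changes from day 4 to day 10 were -0.66 for Des, -2.89 for Krt8 and -2.13 for Crabp2, and none of these passed (edgeR adjusted p = 0.807, 0.129 and 0.705), while Crabp1 passed (0.0107) and did not without WT day 10 (0.1496). Hmga2 changed by -1.998 from day 4 to day 7 in the same fit and did not pass (edgeR adjusted p = 0.2503). Des did not pass without the Per1-/- day 4 or the Per1-/- day 10 library (0.0725 and 0.0896). Cnn1 was in 22, 15 and 6 members on the 3 days and Des in 51, 43 and 27.

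**Figure D4:**
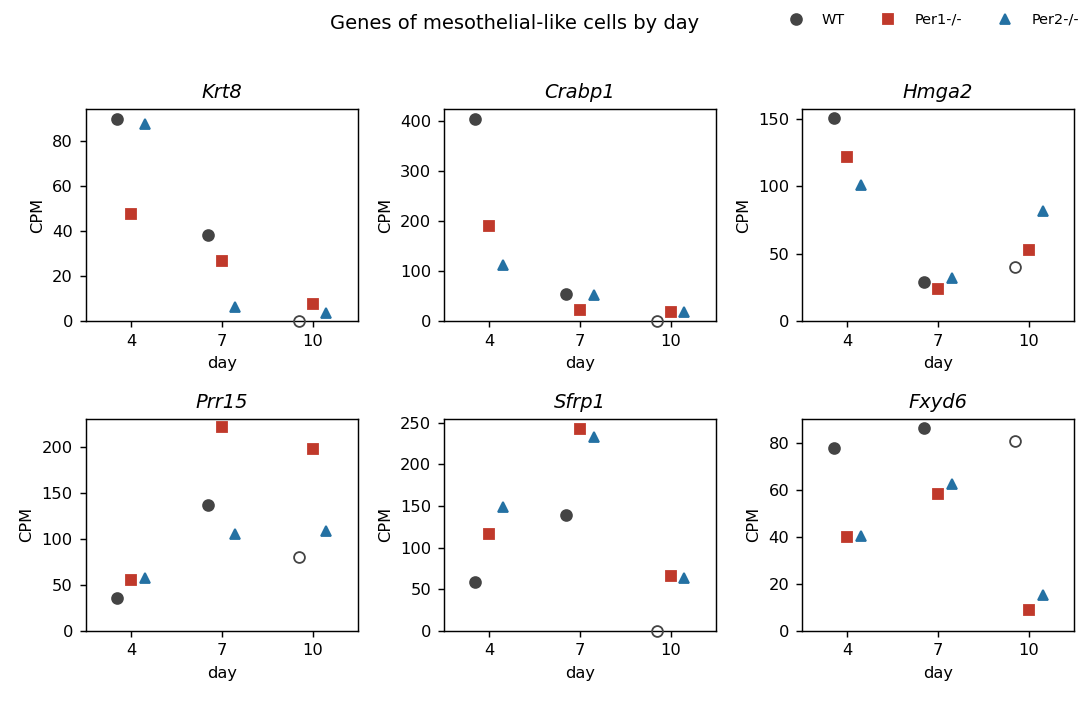
Level of 6 genes in the summed mesothelial-like cells of each library, in CPM (vertical axes) by day and genotype, with the open point the 2 cells of WT day 10. Krt8, Crabp1 and Hmga2 are highest on day 4 in Per1-/- and Per2-/- and in WT up to day 7, Prr15 is lowest on day 4, and Sfrp1 and Fxyd6 are lowest on day 10 apart from Fxyd6 in WT day 10.

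Prr15, a proline-rich protein, rose after day 4 and had the highest median fold over other cells among the 39 genes outside the rule. It was at 35.9, 55.3 and 58.0 CPM on day 4, 137, 222 and 105 CPM on day 7 and 80.8, 198 and 109 CPM on day 10, with no overlap between day 4 and the later days, although WT day 10 rests on 2 UMI. The rise was 1.61 ± 0.26 to day 7 (edgeR adjusted p = 0.00797, 0.0335 without WT day 10) and 1.41 ± 0.29 to day 10 (0.012, 0.0278 without WT day 10), and other cells changed by 1.498 and 1.03. Neither difference between members and other cells passed (edgeR adjusted p = 0.911 for day 10 and higher for day 7). With thinned members the rise was 1.44 to day 7 (edgeR adjusted p = 0.0685) and 1.55 to day 10 (0.0278, 0.0503 without WT day 10). The change to day 10 did not pass without the Per1-/- day 4 or the Per1-/- day 10 library (0.148 and 0.165). Agtr1a, the angiotensin II receptor, was at 2.57, 2.19 and 3.29 CPM on day 4 and 28.8, 20.3 and 22.2 CPM on day 7, a rise of 3.09 ± 0.49 (edgeR adjusted p = 0.00517, 0.0304 without WT day 10) that rested on 7 and 29 positive members. Other cells changed by 1.44 (edgeR adjusted p of the difference 0.230). The matrix genes Col14a1, Lum and Col6a6 rose by 1.504, 2.15 and 3.38 from day 4 to day 7, and of these Col14a1 passed without WT day 10 (edgeR adjusted p = 0.0304, against 0.0676 for both Lum and Col6a6). With thinned members Lum passed (edgeR adjusted p = 0.000715, 0.019 without WT day 10) and Col14a1 did not (0.2503). All 3 also moved up in the other cells, by 1.53, 1.13 and 1.22.

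From day 7 to day 10 the secreted Wnt inhibitor Sfrp1 and the Na,K-ATPase regulator Fxyd6 fell in members, beside changes of 0.010 and -0.036 in other cells. Sfrp1 was at 139, 243 and 233 CPM on day 7 and 0, 65.3 and 63.0 CPM on day 10, without overlap, and fell by 1.98 ± 0.29 (edgeR adjusted p = 0.000444, 0.00147 without WT day 10). Fxyd6 was at 77.9, 40.0 and 40.5 CPM on day 4, 86.3, 58.3 and 62.6 CPM on day 7 and 80.8, 8.74 and 15.3 CPM on day 10. Per1-/- and Per2-/- members were low on day 10, while the 2 WT cells, with 2 UMI, were not. The fall to day 10 was 2.25 ± 0.36 from day 7 (edgeR adjusted p = 0.00132) and 1.80 ± 0.37 from day 4 (0.0128), and neither passed without the Per1-/- day 10 library (0.113 and 0.513). With thinned members Fxyd6 passed from day 7 (edgeR adjusted p = 0.0157) and not from day 4 (0.0952), and Sfrp1 passed (0.00023).

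Changes of members relative to all other cells of the same library were tested in a joint edgeR fit added after these values were seen. Between day 10 and day 4 94 genes (0.924%) differed in change, and 26 (0.256%) without WT day 10. For Fxyd6 the difference was -2.82 ± 0.35 on the log2 scale (edgeR adjusted p = 0.000635, 0.00659 without WT day 10). For Tns1, a tensin of focal adhesions, it was -1.73 ± 0.27 (0.00388, 0.0269 without WT day 10), with member levels of 84.7, 116 and 131 CPM on day 4 and 80.8, 39.0 and 66.4 CPM on day 10. In members alone Tns1 changed by -1.17 (edgeR adjusted p = 0.0391, 0.0735 without WT day 10), and by -0.58 when thinned (0.903). The call in members was also lost without Per1-/- day 4 or Per1-/- day 10. Other cells rose over the same days, by 0.63 for Tns1 and 1.07 for Fxyd6. Sfrp1 differed from day 7 to day 10 (edgeR adjusted p = 0.022) and did not without WT day 10 (0.202). Of the 26, 8 were listed cell-cycle genes.

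The UMI of cell-cycle genes were spread unevenly over members. Of 31 tested genes of the list, 7 rose (Mki67, Ccnb1, Cenpe, Cenpf, Kif11, Nusap1 and Cdk1) and 2 fell (Ccne1 and Ccne2) in members from day 4 to day 10, beside 1.34% of all genes called. Without WT day 10 the calls of Cdk1, Ccne1 and Ccne2 were lost (edgeR adjusted p = 0.0621, 0.0917 and 0.0981). Without Per1-/- day 10 Cenpe alone of the 9 genes passed (edgeR adjusted p = 0.0142). Ccne1 was also lost without WT day 4, Per1-/- day 4 or Per2-/- day 10, Ccne2 without Per1-/- day 4, and Cdk1 without Per2-/- day 4 or Per2-/- day 10. The list had a median log2 change of 1.25 against -0.057 over all genes tested and -0.61 for the list in other cells. Their summed level was 1000, 684 and 636 CPM on day 4, 1410, 671 and 1112 CPM on day 7 and 727, 1163 and 1129 CPM on day 10. In each library the member with most of these UMI held 42.3%, 20.2% and 33.7% of them on day 4, then 55.1%, 41.4% and 30.6% on day 7, and finally 66.7%, 46.3% and 84.6% on day 10. Without that cell the sums were 604, 578 and 443 CPM on day 4, 667, 410 and 835 CPM on day 7 and 625, 658 and 211 CPM on day 10. Since that cell was picked by these UMI, the sums fall by construction, and by more where a library held few members. In the edgeR fit without those 9 cells none of the 7 genes was called higher and the median change of 26 tested genes of the list was -0.11, which follows in part from the same choice. With members thinned to 6500 UMI, 7 genes of the list were tested and 0 were called.

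**Figure D5:**
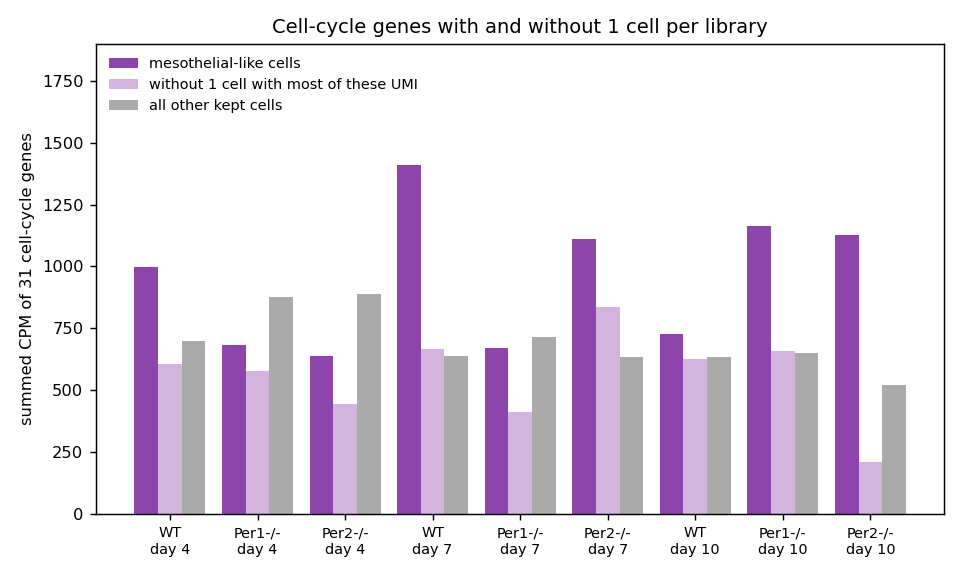
Summed CPM of 31 cell-cycle genes (vertical axis) in each library, for all mesothelial-like cells, for the same cells without the 1 with most cell-cycle UMI, and for all other kept cells. Leaving out that cell lowers the Per2-/- day 10 value from 1129 to 211.

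The genes were also counted cell by cell. Members with at least 10 of the 31 genes made up 42.9%, 44.4% and 14.8% on day 4, then 36.4%, 15.9% and 26.9% on day 7, and finally 0%, 13.6% and 7.69% on day 10, while in other cells the range was 5.85% to 16.5%. This count moves with depth, and the median depth of members was 32737 to 65296 UMI on day 4 and 12421.5 to 30094 UMI on day 10. When every cell was thinned to 3000 UMI, leaving out 0 members, the share with at least 3 of the genes was 22.1%, 20.6% and 15.6% on day 4, then 21.4%, 10.8% and 20.6% on day 7, and finally 30.0%, 10.8% and 8.85% on day 10. Other cells gave 6.57% to 14.9% in the same count, with at most 2000 per library. WT day 10 rests on 2 cells. Members with a Mki67 UMI, without thinning, were 28.6%, 25.9% and 11.1% on day 4 and 0%, 18.2% and 15.4% on day 10. Serpina3n, an acute-phase protease inhibitor, and Spp1 rose by 5.37 ± 0.70 and 3.85 ± 0.61 from day 4 to day 10 (edgeR adjusted p = 0.000102 and 0.000994), with 78.6% and 84.6% of their day 10 UMI in 1 cell. Spp1 did not pass without WT day 10 or Per1-/- day 10 (0.103 and 0.0584). Ly6a and Sprr2k, lower on day 7 than on day 4, had 67.3% and 54.7% of their day 4 UMI in 1 cell.

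Macrophage transcripts moved with the day in members and in the other cells. Of 6 tested macrophage markers 4 rose from day 4 to day 10, beside 1.34% of all genes called, and 0 did without WT day 10, beside 0.668%. Their summed level in members was 29.1, 25.7 and 8.76 CPM on day 4, 19.2, 210 and 261 CPM on day 7, and 1051, 417 and 61.3 CPM on day 10, beside 310 to 3642 CPM in the other cells. The 6 tested markers had a median log2 change from day 4 to day 10 of 3.52 in members and 2.22 in other cells. The joint fit called 0 of them as differing. C1qc and Lyz2 were called from day 4 to day 7 by the same fit as the 4, with 48.8% and 43.7% of their day 7 UMI in 1 member, and lost the call without WT day 10 (edgeR adjusted p = 0.0976 and 0.200). In other cells they changed by 2.23 and 1.92. The part of transcripts from other cells in these values was not tested.

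Most listed groups gave few or no calls over days. From day 4 to day 10, 1 of 20 tested identity genes rose (Cxcl13) and 1 fell (Krt8), with a median change of 0.29, and 0 of 13 junction genes, 0 of 9 complement genes, 0 of 14 clock genes, 0 of 24 TNF and NF-kB response genes and 0 of 21 Hox genes were called, beside 1.34% of all genes. The 20 identity genes had a median change of 0.09 in other cells.

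Between genotypes the number of genes called changed with the libraries and members used. Over the 3 days edgeR called 9 genes (0.0884%) between Per1-/- and WT, 5 (0.0491%) between Per2-/- and WT and 38 (0.373%) between Per1-/- and Per2-/-. Without members of another class or of highest UMI the counts were 124, 133 and 62, and without Per1-/- day 4 they were 147, 36 and 236. All 3 counts were 0 without the 2 cells of WT day 10, when 651, 510 and 818 genes had an unadjusted p under 0.05, and limma-voom called 0 in each with all 9 libraries. In simulated counts the Per1-/- against WT fit recovered 89% of genes changed 4-fold and 23% of genes changed 2-fold, and called 7 unchanged genes, beside the 9 calls in the real counts. Higher in Per1-/- than in WT were the myosins Myh1 and Myh8, the Y-linked helicase Ddx3y, transferrin (Trf), Adgrd1 and Akap5, and lower were Tfap2b, Cthrc1 and Chst2.

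Myh8 was at 43.6, 89.2 and 28.5 CPM in WT, Per1-/- and Per2-/- members on day 4, 16.8, 293 and 34.9 CPM on day 7 and 0, 414 and 100 CPM on day 10. Per1-/- was highest on each day. It exceeded WT by 2.35 ± 0.45 on the log2 scale (edgeR adjusted p = 0.0491, 0.285 without WT day 10), where other cells differed by 1.74. It exceeded Per2-/- by 2.32 ± 0.38 on the log2 scale (edgeR adjusted p = 0.00571, 0.111 without WT day 10), and other cells differed by 0.60. Apoe, the lipid carrier, was at 41.9, 83.2 and 187 CPM on day 4, 120, 131 and 438 CPM on day 7 and 80.8, 123 and 567 CPM on day 10, so Per2-/- was highest on each day. Apoe was also highest in Per2-/- among the other cells on days 7 and 10. Ddx3y, at 26.4, 148 and 44.4 CPM on day 7, followed the share of Y-positive cells described above.

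Gata4 was at 1.71, 23.0 and 60.2 CPM on day 4, 4.80, 16.6 and 20.6 CPM on day 7 and 0, 8.16 and 46.0 CPM on day 10, with Per2-/- above Per1-/- on each day and WT lowest on days 4 and 7. The 0 UMI of WT day 10 allow up to 121 CPM and give no order there. It exceeded WT by 4.14 ± 0.68 in Per2-/- (edgeR adjusted p = 0.0169, 0.246 without WT day 10 and 0.807 without WT day 4). Krt14 was at 150, 37.8 and 6.57 CPM on day 4, 24.0, 38.5 and 12.7 CPM on day 7 and 0, 181 and 3.41 CPM on day 10, and was 2.92 ± 0.62 higher in Per1-/- than in Per2-/- (edgeR adjusted p = 0.0347, 0.219 without WT day 10). Amhr2, Hoxd13, a gene of posterior and distal parts, and the opioid precursor Penk were lower in Per1-/- than in Per2-/- by 5.11, 4.51 and 3.88 on the log2 scale and lost the call in the same way (edgeR adjusted p = 0.111 each). Since each culture pooled several embryos, region of origin, sex and genotype cannot be told apart in these values.

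Cxcl13, a chemokine that attracts B cells and that serous cavity linings make, was in 6.51% of members. Members held 66 of 3204 Cxcl13 UMI, 2.06% (exact 95% interval 1.60% to 2.61%), in 14 cells, all 14 with Wt1. The share was 14.6% in Per1-/- day 10 and 9.29% in Per2-/- day 10 and at most 2.04% in the other libraries. Other cells of Per1-/- day 4 alone held 1554 UMI, and the share over all libraries was 3.94% without that library and 1.20% without Per1-/- day 10. With at least 4 of the 6 genes required of a member it was 0.406%, since 53 of the 66 UMI were in members with exactly 3, among them 26 of 30 in Per1-/- day 10 and 17 of 25 in Per2-/- day 10. By library members held 0, 1 and 1 UMI on day 4, then 0, 6 and 3 UMI on day 7 and 0, 30 and 25 UMI on day 10, or 0, 17.5 and 42.6 CPM on day 10 beside 0.912 to 1.03 CPM in the other cells. It rose by 4.94 ± 0.83 from day 4 to day 10 (edgeR adjusted p = 0.00279, 0.0249 without WT day 10; its difference from other cells 0.00858 and 0.0531) on 2 and 9 positive cells, and 41.8% of the day 10 UMI were in 1 cell. The 0 UMI in WT day 10 came from 24843 UMI in all, which allows up to 121 CPM. Cells of the macrophage rule held 196 of the UMI, 173 of them in Per1-/- day 7. There they were at 3.62 CPM, beside 3.21 CPM in members from 6 UMI in 1 cell. Cells of the fibroblast rule held 2544 of the UMI. On day 4 they were at 6.45 CPM in Per1-/-, where the members were at 0.547 CPM from 1 UMI. They were at 2.01 and 1.14 CPM in WT and Per2-/- on day 4, where 3 UMI in members would be 2.57 and 3.29 CPM, so no order can be given there, and at 0.354 and 1.63 CPM in Per1-/- and Per2-/- on day 10, below the members.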

How the data were processed

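Droplet single-cell RNA-seq (10x Chromium) was done on 9 libraries. The authors deposited filtered matrices of raw UMI counts per gene and barcode. The labels name Cell Ranger 7.1 and mm10, whereas the matrix headers give version 4.0.0 for days 4 and 7 and 6.0.0 for day 10. The members, gene lists and tests were chosen with earlier results of these data known. A barcode was kept with 3000 UMI or more and no more than 20% of them mitochondrial. Counts of members were summed per library and tested across all genes with edgeR 4.0.16 (R 4.3.3; TMM, filterByExpr, quasi-likelihood F-test, terms for genotype and day, Benjamini-Hochberg adjustment). DESeq2 1.42.0 and limma-voom (limma 3.58.1) were alternatives. Members relative to other cells were tested with library as a block. Shares were compared by exact permutation of library labels, with Clopper-Pearson intervals. Intervals cover counting error only. Other classes were set by marker rules (for macrophages 5 of 8 markers, for fibroblasts 6 of 8). Fibroblast sums left out cells that met the rule of another class. The fits were tested on simulated counts. For each day comparison, the genes named were the 10 with the smallest adjusted p in each direction. For genotypes they were all called genes or 10 a direction. Further genes came from the lists, and Cxcl13, Tns1, Serpina3n, Spp1 and the genes compared cell by cell were named after their values were seen. Some named genes are not reported here. No gene was tested over cells as replicates, and the members' 24843 to 1872408 UMI per library limit genes of low level.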

Additional observations from a re-analysis of the deposited data

Results flagged for a closer look

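The change in the share of mesothelial-like cells from day 4 to day 10 was 0.232 percentage points in Per1-/- and -0.213 and -0.215 percentage points in WT and Per2-/-, in opposite directions. With 1 library per genotype and day this difference was not tested, and the day and the pooled embryos cannot be told apart. The change of 94 genes from day 4 to day 10 differed between mesothelial-like and other cells in the joint edgeR fit, and 26 of them did so without the WT day 10 library. These 26 included Fxyd6, Tns1 and 8 listed cell-cycle genes. Without the member of each library with most cell-cycle UMI 101 genes were called over all 9 libraries and 1, Fxyd6, without WT day 10. With members thinned to 6500 UMI the counts were 31 and 46.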

How the results depend on the processing

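No paired analysis was possible because the 9 groups had 1 library each and no replicate number, so the only blocks in the fits were genotype, day and library. Leaving out each library in turn moved the share of mesothelial-like cells in Per1-/- against the other genotypes between 0.188 and 0.459 percentage points, in Per2-/- between -0.174 and 0.0128 (reversed without Per1-/- day 7), and the trend over days between -0.0468 and 0.0251 percentage points per day (reversed without Per1-/- day 10). Counting cells with 2 of 6 genes gave 0.423 percentage points for Per1-/-, requiring at least 4 gave 0.237 and thinning to 3000 UMI gave 0.153. The same exercise moved the number of called genes between 0 and 147 between Per1-/- and WT, 0 and 96 between Per2-/- and WT, 0 and 299 between both knockouts, 11 and 178 for day 7 against day 4, 48 and 180 for day 10 against day 7, 68 and 254 for day 10 against day 4, and 26 and 235 for the joint fit. It moved the genes higher in members in every library between 39 and 116 and the share of Cxcl13 UMI between 1.20% and 3.94%. Without WT day 10 the counts of calls were the lowest of each range, and without Per1-/- day 4, Per2-/- day 4 or Per2-/- day 10 the highest, and the cause was not tested.

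In the order Per1-/- against WT, Per2-/- against WT, Per1-/- against Per2-/-, day 7 against day 4, day 10 against day 7 and day 10 against day 4, calls numbered 156, 77, 245, 229, 218 and 330 with no filter beyond 1 UMI, 1, 0, 2, 17, 41 and 74 with at least 4 of the 6 genes, 5, 3, 27, 33, 61 and 91 by DESeq2, and 0, 0, 0, 4, 60 and 83 by limma-voom. DESeq2 size factors gave 5 for Per1-/- against WT. Leaving out members of another class or of highest UMI gave 124, 133 and 62 calls for the 3 genotype comparisons. Without a term for day these gave 0, 0 and 0, and without a term for genotype the 3 day comparisons gave 5, 46 and 63. A covariate of Y-linked CPM gave 7 calls between Per1-/- and WT, of which 2 were higher and 5 lower in Per1-/- (6 and 3 without it), 16 calls between Per2-/- and WT and 24 between both knockouts. The next alternatives were chosen after seeing the data. With members thinned to 6500 UMI, which left fewer genes to test, the day comparisons gave 6, 27 and 31 calls and the joint fit 31. Without the member of each library with most cell-cycle UMI, day 7 against day 4 gave 87 calls. Against fibroblasts by rule the joint fit gave 145. A ratio of at least 2 or at least 4 of the 6 genes each gave 114 genes higher in members, and the Cxcl13 share was 0.406% with at least 4 and 2.87% with at least 2 of the genes. Of the 114 named results none changed direction in the alternatives run. Of their 1826 alternative values 1418 kept their side of the threshold and 408 did not.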

Other observations

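Members that met the fibroblast marker rule numbered 64 of 215. Among the 81999 kept cells 51681 non-members met it, so the rule was met less often by members than by other cells. After those of another class and those among the 5% of cells with most UMI were taken out, 145 members were left. In the clock group Arntl, which codes for BMAL1, was at 7.36 CPM in members against 11.2 CPM in other cells, and was lower in each of the 8 libraries without WT day 10. Of 16 clock genes in at least 10% of members, 1 was higher and 1 lower in each of these 8, beside 10.3% and 15.3% of all such genes. In the summed members 1 of the 16 was at least 4-fold higher, beside 3%. The clotting regulators tissue factor pathway inhibitor (Tfpi, 133 against 39.1 CPM) and the thrombin receptor F2r (62.6 against 28.4 CPM) were higher in members in the same 8 libraries, and tissue factor (F3, 11.5 against 24.3 CPM) was lower. Among the regional transcription factors Tcf21, of epicardium and visceral mesoderm, was in 17.2% of members at 9.60 against 0.412 CPM, and Osr2 was at 8.38 against 79.1 CPM. These ratios are descriptions of the split that the 6 genes made, with no test.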
